A study of Mus musculus with 8 samples.

Results

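Fibro-adipogenic progenitors are the resident mesenchymal cells of skeletal muscle, and 10 genes that mark them were followed here: Pdgfra, Ly6a, Cd34, Dpt, Pi16, Dpp4, Cd248, Clec3b, Osr1 and Gfpt2. They were taken as a list of names rather than by a threshold on values, and the list was drawn up with earlier results of these data known. Of the 10, 9 had a probe set annotated with their symbol alone, among 19752 genes in all. Ly6a, the gene of the surface antigen Sca-1, was not analysed here.

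The rIL-33 group (4 arrays) came from aged male C57BL/6 mice given 2 µg of recombinant interleukin 33 into the peritoneal cavity at each injection, on the day before and the day after injury. The PBS group (4 arrays) carried the treatment label PBS, and no other agent is named for it. In both groups the tibialis anterior had been cryoinjured for 8 s with a metal probe chilled by liquid nitrogen, and whole muscle was taken at day 8. For the arrays of both groups the labels give an age of 99 weeks and the series' design text 22 months. The arrays also carry 1 of 2 labels for genetic background, C57BL/6 on replicates 1 and 2 of either group and WT on replicates 3 and 4, and the sources used here do not say how these differ. Each RNA sample was hybridised to an Affymetrix Mouse Gene 1.0 ST array, a 1-colour array of oligonucleotide probes along each transcript. Nothing in the labels ties each array to a separate mouse, so p-values reflect the spread among these samples only, which may be technical.

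After muscle injury, fibro-adipogenic progenitors divide, lay down matrix and secrete factors that help muscle stem cells, and are then cleared. They can become fibroblasts or adipocytes, and they are a source of interleukin 33 in injured muscle. PDGF receptor alpha (Pdgfra) defines them, and a subset around blood vessels and in the connective tissue sheaths expresses Pi16 and Dpp4 and is found in the connective tissue of many organs. Whole muscle was measured, so fewer progenitors and less RNA per progenitor cannot be told apart in any value below.

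Values are log2 of the deposited intensity, and a difference is rIL-33 minus PBS on that scale. The median intensity per array was 222.6 to 232.2. All 10 genes of muscle fibres taken as a check of the tissue were present and not dim, with group means of 12.69 (Tnni2) to 13.93 (Atp2a1). The 9 progenitor genes also stood above the level under which genes were left out as dim (log2 6.65) on every array. Precision here is set by the number of arrays. Of the variance between arrays, 42.3% lay on the leading principal component, which separated the background labels with no overlap, whereas rIL-33 and PBS arrays overlapped on it.

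All 9 genes had a lower mean with rIL-33, with differences between -0.61 (Dpt) and -0.08 (Clec3b) and a median of -0.22, against a median of -0.01 over the 14814 genes tested, 52.0% of which had a lower mean. None of the 9 passed an adjusted p of 0.05 in limma (adjusted p between 0.489 and 0.871). The genes with a limma p under 0.05 before adjustment were Dpt, Osr1, Pdgfra and Cd34, 4 of 9, whereas 5.24% of all genes tested were lower at that level. In 2 of 9, Dpt and Cd34, every rIL-33 array lay below every PBS array, as in 2.13% of all genes tested. In 0 of 9 did every rIL-33 array lie above every PBS array, which 2.44% of all genes tested showed. Over all genes, 1 gene (0.00675%) passed the adjusted threshold, Retnla, which is no progenitor gene and was higher with rIL-33 by 2.74 (SE 0.24, limma adjusted p = 0.00568).

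**Figure D1:**
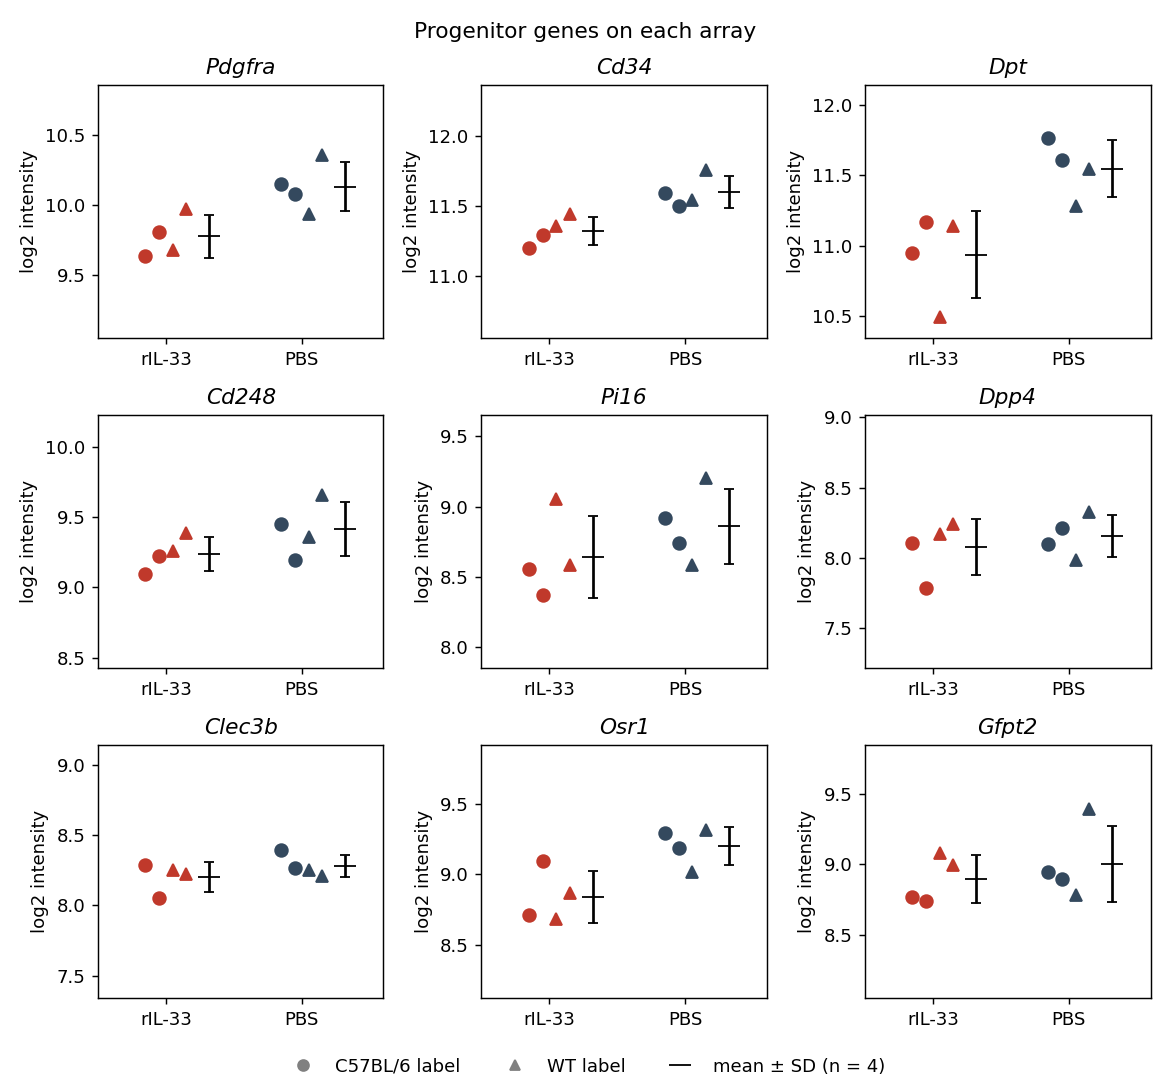
Log2 intensity of the 9 progenitor genes on each array, with rIL-33 on the left and PBS on the right of each panel. Circles are arrays labelled C57BL/6, triangles arrays labelled WT, and the bar beside the points is the mean ± SD (n = 4). All panels span the same number of log2 units. Only for Dpt and Cd34 do the rIL-33 points lie wholly below the PBS points.

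The promoters of Dpt and Cd34 are shown because these are the genes whose groups did not overlap, and that of Gfpt2 because its groups overlapped and its window held the motifs that theirs lacked. Each is the RefSeq window of GRCm38.p6 that runs from 250 bases before to 50 bases after an annotated start, 5′ to 3′ on the strand of the gene, and capitals mark the motifs searched. All 3 are on the plus strand, Dpt at chr1:164796413-164796712, Cd34 at chr1:194938571-194938870 and Gfpt2 at chr11:49793905-49794204.
Dpt: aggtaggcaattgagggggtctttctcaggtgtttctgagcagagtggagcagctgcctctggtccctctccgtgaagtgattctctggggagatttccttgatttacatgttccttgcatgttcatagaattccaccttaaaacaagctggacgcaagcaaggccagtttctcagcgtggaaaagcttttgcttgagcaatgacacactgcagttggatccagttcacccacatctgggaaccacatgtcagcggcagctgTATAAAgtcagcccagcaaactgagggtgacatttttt
Cd34: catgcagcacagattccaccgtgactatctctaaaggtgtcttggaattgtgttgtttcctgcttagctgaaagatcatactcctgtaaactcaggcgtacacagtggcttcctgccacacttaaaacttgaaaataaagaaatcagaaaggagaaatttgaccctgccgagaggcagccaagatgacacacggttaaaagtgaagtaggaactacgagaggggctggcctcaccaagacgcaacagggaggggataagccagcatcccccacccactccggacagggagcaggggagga
Gfpt2: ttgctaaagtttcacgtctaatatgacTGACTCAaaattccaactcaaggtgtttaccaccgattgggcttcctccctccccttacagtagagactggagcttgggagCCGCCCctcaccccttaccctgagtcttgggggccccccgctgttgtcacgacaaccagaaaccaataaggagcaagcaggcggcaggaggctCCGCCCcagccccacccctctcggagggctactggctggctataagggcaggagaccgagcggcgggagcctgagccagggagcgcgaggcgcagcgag

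Windows were matched by symbol for 6 of the 10 genes (Pdgfra, Cd34, Dpt, Pi16, Dpp4 and Gfpt2). Searched on both strands were TATAAA, the core of the TATA box, TGANTCA, the AP-1 motif, and GGGCGG, the GC box, none of which overlapped another in these windows. TATAAA lay in the windows of Dpt, from base 263, and of Dpp4, from base 24, and in 13.6% of all 32851 windows. Relative to the annotated start these matches began at 12 in Dpt and at -227 in Dpp4. Whether either acts as a TATA box was not tested. TGANTCA lay only in that of Gfpt2 (from base 28) among the 6, and in 7.81% of all windows. GGGCGG was likewise found among the 6 only in that of Gfpt2, on the opposite strand from bases 109 and 202, and in 35.7% of all windows. The windows of Pdgfra, Pi16 and Dpp4, whose groups also overlapped, held neither TGANTCA nor GGGCGG. The Gfpt2 window held 15 CpG sites, against 4 in that of Dpt, 7 in that of Cd34 and a median of 7 over all windows.

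The surface receptors come first. Pdgfra (chromosome 5, GRCm38.p6 75151322 to 75198206) encodes the receptor tyrosine kinase for PDGF ligands by which these cells are sorted. Its log2 intensity was 9.64, 9.81, 9.68 and 9.97 on the rIL-33 arrays, against 10.15, 10.08, 9.94 and 10.36 on the PBS arrays. The groups overlapped only through the highest rIL-33 array, replicate 4, which lay above the lowest PBS array, replicate 3. The difference was -0.35 (SE 0.11, 95% interval -0.59 to -0.12), or 78.2% of the PBS intensity, with limma adjusted p = 0.489 and exact two-sided permutation p = 0.0571.

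Cd34 (chromosome 1, 194938821 to 194961292) encodes a sialomucin found on these progenitors and also on endothelium and muscle stem cells. It read 11.20, 11.29, 11.36 and 11.44 with rIL-33 and 11.59, 11.50, 11.54 and 11.76 with PBS. All 4 rIL-33 values lay under the lowest PBS value. The difference was -0.28 (SE 0.08, 95% interval -0.46 to -0.09, limma adjusted p = 0.489), and the exact two-sided permutation p of 0.0286 is the smallest that 70 assignments of the arrays allow. Endothelial genes other than Cd34 had a lower mean in 10 of 12, with a median of -0.12, Eng (-0.33, SE 0.10) and Emcn (-0.32, SE 0.08) differing most. Of the 12, 4 were lower and 1 higher at a limma p under 0.05 before adjustment (5.24% and 4.39% of all genes). In 5 of the 12 every rIL-33 array lay below every PBS array (2.13% of all genes), and in 0 above. The summed intensity of the list was 9707 to 10991 on rIL-33 arrays and 11090 to 11975 on PBS arrays, and the part of these genes in the Cd34 value was not tested.

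Cd248 (chromosome 19, 5068078 to 5070640) encodes endosialin, a transmembrane glycoprotein of fibroblasts and pericytes. Its rIL-33 values were 9.09, 9.22, 9.26 and 9.38, against PBS values of 9.45, 9.19, 9.36 and 9.66. PBS replicate 2 lay below 3 of the rIL-33 arrays. The difference of -0.18 (SE 0.11, limma adjusted p = 0.602, exact permutation p = 0.200) was within an interval of -0.41 to 0.06, and it was -0.09 without PBS replicate 4, the highest array.

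Among secreted proteins, dermatopontin (Dpt, chromosome 1, 164796663 to 164824274), a matrix protein that binds decorin and collagen, had the largest difference of the 9. It stood at 10.94, 11.17, 10.49 and 11.14 on the rIL-33 arrays, against 11.76, 11.61, 11.28 and 11.54 on the PBS arrays. The highest rIL-33 array was under the lowest PBS array, and rIL-33 replicate 3 was the lowest of all. Dpt averaged 10.94 ± 0.31 with rIL-33 and 11.55 ± 0.20 with PBS (SD, n = 4 each). The difference was -0.61 (SE 0.15, 95% interval -0.95 to -0.27), or 65.5% of the PBS intensity, with limma adjusted p = 0.489 and exact permutation p = 0.0286. It lay among the lowest 0.304% of all differences, and it was -0.46 without rIL-33 replicate 3 and -0.70 without PBS replicate 3.

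Pi16 (chromosome 17, 29318796 to 29328903), a peptidase inhibitor of the CAP family, marks the perivascular and connective tissue subset. Its values were 8.56, 8.37, 9.06 and 8.59 with rIL-33 and 8.92, 8.74, 8.58 and 9.21 with PBS. One array of each group stood out of line with the difference, rIL-33 replicate 3 being the second highest of the 8 and PBS replicate 3 lying below 2 of the rIL-33 arrays. The difference was -0.22 (SE 0.16, interval -0.58 to 0.14, limma adjusted p = 0.688, exact permutation p = 0.286). It was -0.36 without rIL-33 replicate 3 and -0.10 without PBS replicate 4.

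Clec3b (chromosome 9, 123150946 to 123157432) encodes tetranectin, a plasminogen-binding lectin secreted by the same subset. Its values had the smallest range of the 9, with 8.29, 8.05, 8.25 and 8.22 on rIL-33 arrays and 8.39, 8.26, 8.25 and 8.21 on PBS arrays. The groups overlapped broadly, and rIL-33 replicate 2 was the one array that stood lower than the rest. The difference was -0.08 (SE 0.08, interval -0.25 to 0.10, limma adjusted p = 0.795), or -0.02 without that array.

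Dpp4 (chromosome 2, 62330073 to 62412315) encodes CD26, a membrane dipeptidase that trims chemokines and marks the Pi16 subset and also T lymphocytes. It read 8.11, 7.79, 8.17 and 8.24 with rIL-33 and 8.10, 8.21, 7.99 and 8.33 with PBS. Only rIL-33 replicate 2 was under the PBS range, and the other rIL-33 arrays lay within it. The difference was -0.08 (SE 0.11, interval -0.33 to 0.17, limma adjusted p = 0.871), and 0.02 without rIL-33 replicate 2. The T lymphocyte genes taken beside it had a lower mean in 7 of 8, with a median of -0.35, and Cd3g (-0.88, SE 0.46) and Cd8b1 (-0.68, SE 0.28) differed most. The summed intensity of the list was 1793 to 2138 on rIL-33 arrays and 1691 to 2740 on PBS arrays. The part of these genes in the Dpp4 value was not tested.

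Inside the cell, Osr1 (chromosome 12, 9574442 to 9581500) encodes a zinc finger transcription factor of embryonic connective tissue that progenitors express again after injury. Its values were 8.71, 9.09, 8.68 and 8.87 on rIL-33 arrays, against 9.29, 9.19, 9.02 and 9.31 on PBS arrays. Only rIL-33 replicate 2 reached into the PBS range. The difference was -0.36 (SE 0.11, interval -0.60 to -0.13, limma adjusted p = 0.489, exact permutation p = 0.0571), or 77.7% of the PBS intensity.

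Gfpt2 (chromosome 11, 49794155 to 49838620) encodes the second isoenzyme of the step that commits glucose to the hexosamine pathway. Its rIL-33 values were 8.77, 8.74, 9.08 and 8.998, and its PBS values 8.94, 8.89, 8.78 and 9.39. Both C57BL/6-labelled rIL-33 arrays lay under all PBS arrays and both WT-labelled ones above 3 of the PBS arrays, and PBS replicate 4 lay above all others. The difference was -0.11 (SE 0.13, interval -0.40 to 0.19, limma adjusted p = 0.854), and 0.02 without PBS replicate 4. The gene of the first isoenzyme, Gfpt1, differed by 0.05 (SE 0.08, limma adjusted p = 0.868).

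**Figure D2:**
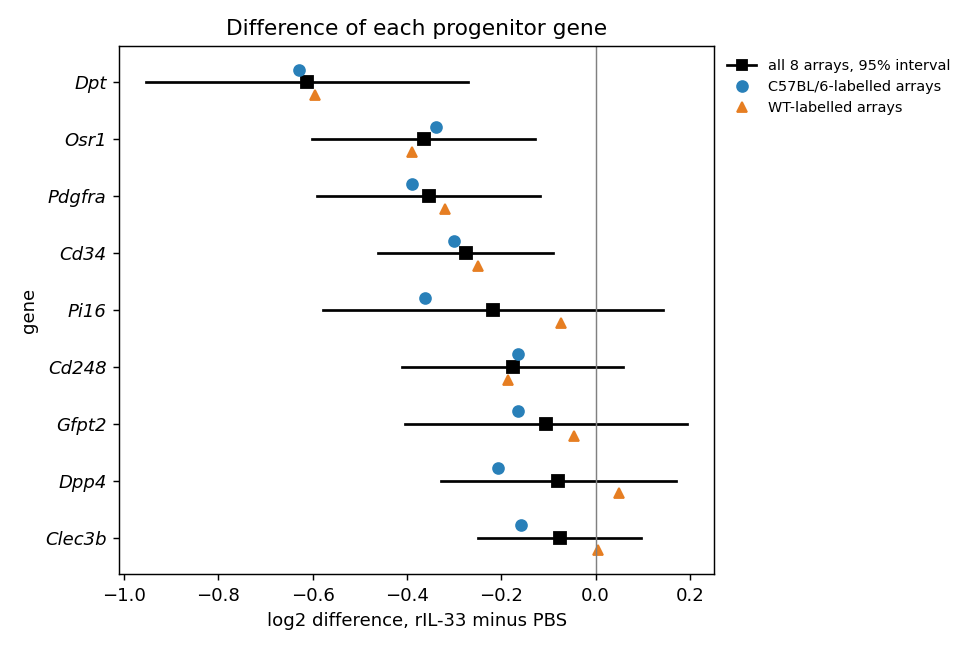
Log2 difference (rIL-33 minus PBS, horizontal axis) of each progenitor gene, with the 95% interval of the limma fit over all 8 arrays, and the difference within the C57BL/6-labelled (circles) and WT-labelled (triangles) arrays. Intervals of Dpt, Osr1, Pdgfra and Cd34 lie wholly below 0, before adjustment for the number of genes tested. Dpp4 and Clec3b are below 0 within the C57BL/6 label and at 0.05 and 0.01 within the WT label.

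The background label and the treatment effect were set apart next. WT-labelled and C57BL/6-labelled arrays differed at a limma p under 0.05 before adjustment in 32.9% of the genes tested and in 0 of the 9 progenitor genes, with limma adjusted p between 0.192 and 0.909. After adjustment, 9.40% of all genes tested differed between the labels. The treatment effect differed between the labels at a limma p under 0.05 before adjustment in 3.19% of genes tested and, again, in 0 of the 9. After adjustment it differed in 0 of all genes tested. The smallest interaction p of the 9 was that of Dpp4 (limma adjusted p = 0.999), with differences of -0.21 within C57BL/6 and 0.05 within WT. For Dpt the differences were -0.63 and -0.59 within C57BL/6 and WT, for Pdgfra -0.39 and -0.32, for Osr1 -0.34 and -0.39 and for Cd34 -0.30 and -0.25. In 7 of 9 genes the mean was lower within both labels, as in 33.6% of the genes tested. With the label as a block, the same 4 genes had a limma p under 0.05 before adjustment, beside 7.22% of all genes lower at that level, and none passed after it (smallest adjusted p = 0.246).

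The arrays did not rank alike within each group. PBS replicate 4 was the highest of the 8 arrays in 7 of the 9 genes, and PBS replicate 1 in the other 2, Dpt and Clec3b. The lowest array was rIL-33 replicate 1 in 3 genes, rIL-33 replicate 2 in 4 and rIL-33 replicate 3 in 2. With each gene centred on its own mean, the average over the 9 genes was -0.19, -0.17, -0.11 and -0.02 on the rIL-33 arrays and 0.17, 0.07, -0.04 and 0.30 on the PBS arrays. PBS replicate 3, one of the WT-labelled arrays, thus lay below rIL-33 replicate 4, and the groups overlapped in this average. Without PBS replicate 4, the median difference of the 9 genes was -0.10.

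**Figure D3:**
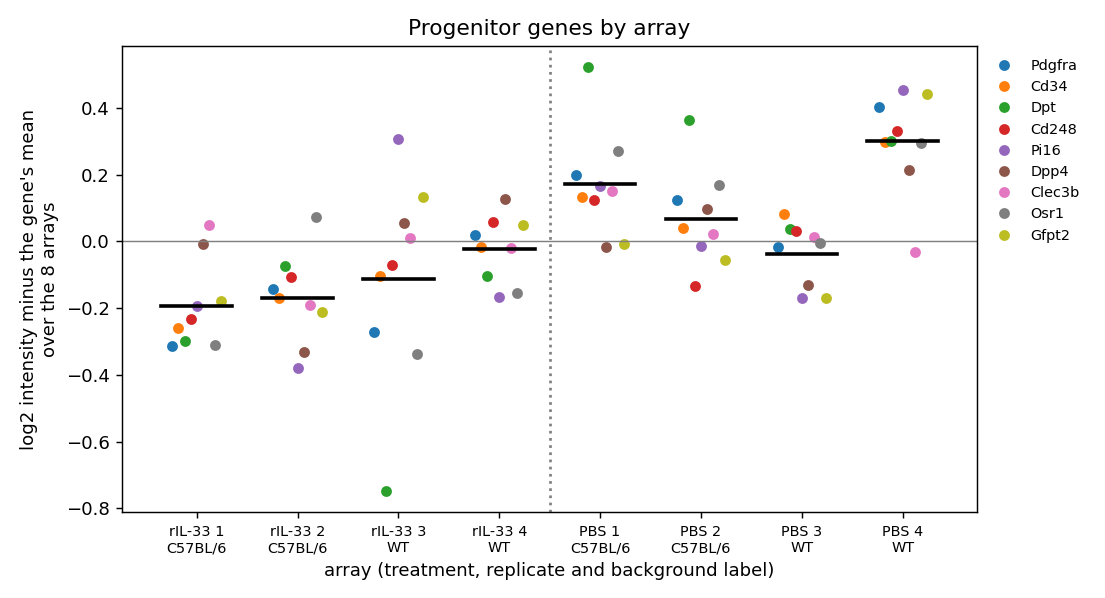
Log2 intensity of each progenitor gene minus its mean over the 8 arrays (vertical axis), by array, with the average over the 9 genes as a black line. The rIL-33 arrays are on the left of the dotted line and the PBS arrays on the right. Averages run from -0.19 to -0.02 with rIL-33 and from -0.04 to 0.30 with PBS.

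Across the 8 arrays the genes varied together to different degrees. These correlations describe arrays that share a treatment and a label, and each rests on 8 points. Of the 36 pairs, all had a positive Pearson r (median 0.50). Once the group means had been taken out, 25 stayed positive, and the median over all 36 was 0.38. Pdgfra and Cd34 were closest to each other (r = 0.94, Spearman rho 0.90, and r = 0.84 within groups). Dpt was closest to Osr1 (r = 0.92, rho 0.90, within groups 0.78), and Pi16 to Gfpt2 (r = 0.88, rho 0.93, within groups 0.88). Cd248 was closest to Cd34 (r = 0.90, rho 0.81) and Dpp4 to Gfpt2 (r = 0.77, rho 0.79). Clec3b followed none of the others closely, its best match being Dpp4 with r = 0.46 and rho -0.14. Dpt and Pi16 had r = 0.11 and, within groups, -0.41.

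The 5 genes outside the list whose pattern over the 8 arrays was most like the average of the 9 were Serping1, Gngt2, Dusp7, Slit3 and Tlr1, with r between 0.97 and 0.99 and rho between 0.98 and 1. They were picked for the highest r among all other genes tested, so the high r follows from the choice. The average itself was lower with rIL-33 (-0.13, against 0.13 with PBS). Lower values of these genes thus follow largely from the choice and are no separate support. Serping1, the inhibitor of complement C1, averaged 11.48 ± 0.12 with rIL-33 and 11.91 ± 0.24 with PBS (SD, n = 4 each), a difference of -0.43 (SE 0.12, limma adjusted p = 0.489). Slit3, a secreted ligand of Robo receptors, differed by -0.34 (SE 0.09, limma adjusted p = 0.489). Every rIL-33 array lay below every PBS array for Slit3, as in 2.13% of all genes tested. Gngt2, a G protein gamma subunit, and Tlr1, a receptor for bacterial lipopeptides, both differed by -0.28. Dusp7, a phosphatase of MAP kinases, differed by -0.13. None of the 5 stands in a list used here.

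Other genes of the same cells were taken as a list of 27 that shares no gene with the 9. Of these, 26 were tested and 21 had a lower mean with rIL-33, with a median of -0.25, and 10 were lower and 1 higher at a limma p under 0.05 before adjustment (5.24% and 4.39% of all genes). None passed after adjustment. The largest differences were those of Lum (-0.76, SE 0.15), which encodes the proteoglycan lumican, and Mfap5 (-0.53, SE 0.14), a microfibril gene of the Pi16 subset, both also described in earlier results of these data. Tppp3, a tubulin-binding protein gene of tendon sheath and mesenchymal progenitors, differed by -0.47 (SE 0.12), and decorin (Dcn), the proteoglycan that dermatopontin binds, by -0.28 (SE 0.07). Both were named after their values were seen. Gsn, the gene of the actin-severing protein gelsolin, was the 1 higher gene before adjustment, at 0.31 (SE 0.11, limma adjusted p = 0.489), and was also named for its value.

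In the PDGF pathway, 5 of 6 genes beside Pdgfra had a lower mean, with a median of -0.15. Pdgfrb, the second PDGF receptor, differed by -0.38 (SE 0.12) and the receptor-like gene Pdgfrl by -0.38 (SE 0.11), beside -0.35 for Pdgfra. The ligand genes Pdgfa, Pdgfb, Pdgfc and Pdgfd differed by -0.01, -0.12, -0.19 and 0.02. None of the 6 passed in limma (adjusted p between 0.489 and 0.981), and the difference between receptors and ligands was not tested. In the hexosamine pathway of Gfpt2, 4 of 9 genes had a lower mean, with a median of 0.00 and 0 at a limma p under 0.05 before adjustment. The hyaluronan synthase genes Has2 (-0.40, SE 0.21) and Has1 (-0.19, SE 0.15) differed most there.

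Relatives of the 10 genes within their protein families, those of Ly6a included, had a lower mean in 15 of 22 tested, with a median of -0.08. The lists share some genes. Pdgfrb is counted here, in the PDGF pathway and among the other genes of the same cells, and Gfpt1 here and in the hexosamine pathway. Ly6e, a neighbour of Ly6a in the Ly6 family, differed by -0.40 (SE 0.14), and Glipr2, a CAP protein gene related to Pi16, by -0.39 (SE 0.13). For Ly6e every rIL-33 array lay below every PBS array, as in 2.13% of all genes tested. Ly6e says nothing of Ly6a itself. Fap, the membrane protease closest to Dpp4 and a gene of activated fibroblasts, differed by -0.35 (SE 0.13, limma adjusted p = 0.489), beside the -0.08 of Dpp4, and was named for its value. Osr2, the paralogue of Osr1, differed by -0.11 (SE 0.10).

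Genes of the 2 fates of these progenitors were set beside them. All 12 fibrogenic genes tested had a lower mean, with a median of -0.36, and 9 were lower at a limma p under 0.05 before adjustment (5.24% of all genes), led by the protease inhibitor gene Timp1 (-0.72, SE 0.30) and the collagen gene Col6a3 (-0.43, SE 0.18). Of adipocyte genes, 3 of 9 tested had a lower mean and the median was 0.10. The lipid droplet gene Plin4 (0.26, SE 0.12, limma adjusted p = 0.517) and the lipoprotein lipase gene Lpl (0.23, SE 0.14) differed most. The 3 lower adipocyte genes were Pparg (-0.14, SE 0.09), Adipoq (-0.04, SE 0.12) and Fabp4 (-0.01, SE 0.07). None of the fibrogenic or adipocyte genes passed after adjustment.

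Genes of other cells of the muscle were taken to see which stood lower beside the progenitor genes. Cell division genes, which mark no single cell type and can come from dividing progenitors, were taken with them. Tendon genes had a lower mean in 7 of 7 (median -0.19), led by Tnmd (-0.74, SE 0.17) and Kera (-0.46, SE 0.10), with summed intensities of 5760 to 7308 on rIL-33 arrays and 6499 to 8476 on PBS arrays. Macrophage genes were lower in 10 of 12 (median -0.23, summed intensity 10895 to 14846 on rIL-33 arrays and 13299 to 16848 on PBS arrays), with Fcgr1 and Adgre1 at -0.55 (SE 0.17) and -0.44 (SE 0.15). Genes of dividing cells were lower in 8 of 8 (median -0.40, summed intensity 2772 to 4536 on rIL-33 arrays and 3940 to 5269 on PBS arrays), with Ccna2 at -0.58 (SE 0.18) and Ccnb2 at -0.56 (SE 0.15). Mural cell genes were lower in 4 of 7 (median -0.15), with Acta2 at -0.32 (SE 0.14) and Cspg4 at -0.20 (SE 0.12). The 3 higher mural cell genes were Abcc9 (0.20, SE 0.11), Myh11 (0.14, SE 0.10) and Notch3 (0.01, SE 0.08). At a limma p under 0.05 before adjustment, 2 tendon, 4 macrophage, 7 cell division and 1 mural cell genes were lower (5.24% of all genes). At the same level 1 macrophage gene was higher (4.39% of all genes). Every rIL-33 array lay below every PBS array in 2 tendon, 2 macrophage, 0 cell division and 1 mural cell genes (2.13% of all genes). The part of these cells in the progenitor values was not tested.

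Markers of muscle fibres, of their stem cells and of nerve sheath were taken in the same way. Muscle fibre genes had a lower mean in 1 of 10, with a median of 0.06 and Actn3 (0.13) and Tnni2 (0.13) differing most, and their summed intensity was 117177 to 126937 on rIL-33 arrays and 110626 to 123289 on PBS arrays. Satellite cell and myoblast genes were lower in 5 of 8, with a median of -0.03 and Myog (-0.22, SE 0.19) and Myod1 (-0.11, SE 0.13) differing most. Of 4 Schwann cell genes tested, 2 were lower and the median was 0.00, with Pmp22 at -0.22 and Mbp at 0.14. None of these genes passed the adjusted threshold in limma, and the difference between the progenitor genes and any other list was not tested.

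**Figure D4:**
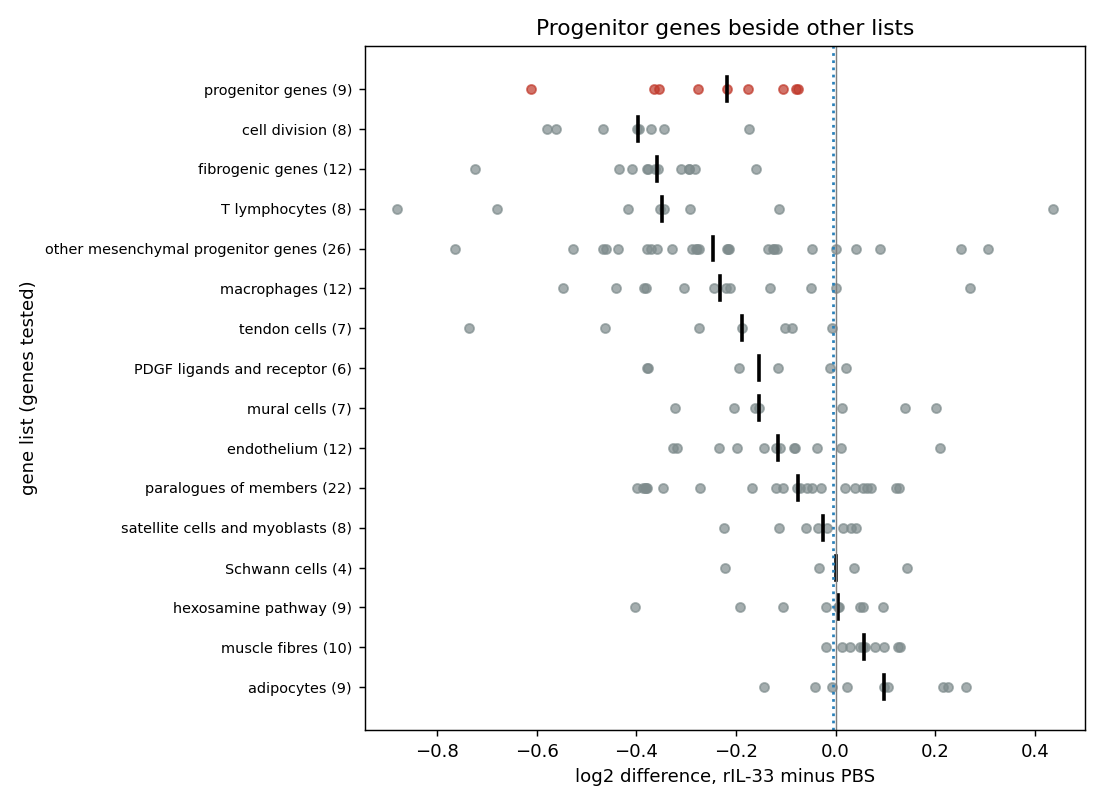
Log2 difference (rIL-33 minus PBS, horizontal axis) of every tested gene (points) in the progenitor list (top row) and the other lists, with the median of each list as a black bar, the number tested in brackets and the median of all genes tested as a dotted line. The progenitor genes lie between -0.61 and -0.08, and the medians of the other lists run from -0.40 (cell division) to 0.10 (adipocytes).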

How the data were processed

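The deposited values are probe set intensities on a linear scale, which the authors made, per the submitters' processing notes, with RMA and Affymetrix Power Tools (no version is stated there). RMA removes background, equalises the distributions of probes between arrays and combines probes into probe sets, and signal from elsewhere compresses the differences of dim probe sets. Log2 was taken. Of 24922 probe sets, 21425 had 1 gene symbol in the platform annotation, 1399 several and 2098 none listed. The brightest one-symbol probe set stood for each of 19752 genes, each of the 9 progenitor genes had only 1, and 4938 dim genes (mean under the 25th percentile, log2 6.65) were left out, none of them progenitor genes.

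For the 14814 genes left, limma 3.58.1 (lmFit, eBayes; R 4.3.3) was run over all 8 arrays without a block, with Benjamini-Hochberg adjustment over all of them and a threshold of 0.05, and the code was tested on simulated data. Lists are described by counts and medians. The progenitor genes and all lists were chosen with earlier results of these data known. Beyond the progenitor genes, the text names per list the 2 genes of largest difference, the 5 genes of most similar pattern, and genes past the threshold. Outside that rule it names the other PDGF genes, Gfpt1, Osr2, the lower adipocyte genes, the higher mural cell genes and the genes said to be named for their values. Promoters came from RefSeq (GRCm38.p6), and coordinates of genes from its annotation of that build. Plots used matplotlib 3.10.9 (Python 3.11.15).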

Additional observations from a re-analysis of the deposited data

How the results depend on the processing

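Over 21 alternatives (quantile and cyclic loess normalization, other dim filters, trend and robust eBayes, array weights, both blocks, each label alone, mean of probe sets, log2 of intensity plus 50, the exact permutation test, and each of 8 arrays left out), no progenitor gene passed the adjusted threshold (smallest adjusted p = 0.237, for Dpt with the replicate number as a block). Of 189 values, 185 kept their direction and 4 reversed. The other dim filters, trend and robust eBayes, both blocks, the mean of probe sets and the exact permutation test left each difference unchanged. Under these settings no direction could reverse, so their values are no separate support. The exact permutation test, with 0.0286 as its smallest possible p, gave adjusted p of 0.625 or more for the progenitor genes. Dpp4 stood at 0.050 and Clec3b at 0.0055 within the WT-labelled arrays, and the cause was not tested. With 1 array left out, Dpp4 ran from -0.14 (without PBS replicate 3) to 0.018 (without rIL-33 replicate 2), and Gfpt2 from -0.18 (without PBS replicate 3) to 0.025 (without PBS replicate 4). Over the same omissions, the median of the 9 genes ran from -0.29 to -0.10, the genes higher past the threshold numbered 1 to 2, and lower genes and progenitor genes past it 0. The labels do not say that a replicate number marks a shared source. Deviations of same-numbered arrays from their group means correlated by 0.44, -0.19, 0.43 and 0.54. Of the 4 rIL-33 arrays, 2 correlated best with the PBS array of their own number, so a pairing was not shown for all 4 numbers. Same-numbered arrays also share a background label, which these deviations still hold and which the replicate block takes out too. These correlations therefore cannot tell a shared source from a shared label. The replicate block left 0 genes higher past the threshold, Retnla included, against 1 without it, and it changed no call of a progenitor gene. There were 2 higher within the C57BL/6-labelled arrays alone, and 3 higher and 1 lower within the WT-labelled ones. Genes lower at a limma p under 0.05 before adjustment numbered 776, but 1219 with the replicate block, 471 with array weights, 498 within the C57BL/6 label, 369 without rIL-33 replicate 1, 416 without rIL-33 replicate 3 and 420 without PBS replicate 4. The progenitor genes at that level numbered 4 of 9, beside 5.24% of all genes lower. They numbered 2 within the WT label, beside 4.46% of all genes lower. They numbered 5 with array weights (3.18% of all genes lower), within the C57BL/6 label (3.36%), without rIL-33 replicate 3 (2.81%) or without PBS replicate 2 (6.35%). At a threshold of 0.1 the counts were the same. The precision is limited by 4 arrays per group, and no detection calls were used, so signal over background is not known per probe set.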
